A study of Mus musculus with 24 samples.

Results

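The 574 peaks described here are all those that 7 deposited ChIP-seq peak lists of mouse histone marks place on chromosome 13 between positions 15800001 and 20000000 (mm10), out of 368246 peaks on chromosomes 1 to 19, X and Y. The interval was selected on the excess of its fibroblast H3K27ac peaks called only with a Hedgehog agonist over those called only in the control, so that difference is the rule of selection and is given throughout as a description without a test. The lists contribute 356 peaks (NIH3T3 H3K27ac with purmorphamine), 99 (NIH3T3 H3K27ac control), 28 (WT limb bud H3K27ac), 29 (Shh-/- limb bud H3K27ac), 22 (WT limb bud H3K4me2), 26 (Shh-/- limb bud H3K4me2) and 14 (Shh-/- limb bud H3K27me3). No member straddles an end of the interval.

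NIH3T3 is an established mouse embryonic fibroblast line. By the labels the NIH3T3 cells were moved to low serum before treatment, while the study's methods give the move together with the treatment, and the labels name LIF in both arms. For 48 h, 1 arm then received 400 nM purmorphamine, which activates the Hedgehog pathway through the receptor component Smoothened, and the other received the vehicle DMSO. The limb samples were forelimb buds of Swiss Webster embryos at E10.5 (32 to 35 somites), either WT or Shh-/-, which lack the Hedgehog ligand of the limb bud. By the study's methods the WT embryos included heterozygous littermates and buds of several embryos were pooled, so a bud sample is a mixture of cell types and embryos. Every ChIP group had 2 libraries, each made from 400000 limb bud cells or 1000000 NIH3T3 cells, with 1 or 2 input libraries per group. The authors called peaks on both replicates together, so there is 1 list per group and no spread between replicates can be given; it is also not known from the lists whether cultures were independent. By the labels limb and NIH3T3 H3K27ac were precipitated with different antibodies (Diagenode and abcam), while the study's methods list the Diagenode antibody for ChIP-seq and the abcam one for ChIP-qPCR.

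H3K27ac is an acetyl mark of active promoters and enhancers, H3K4me2 marks promoters and enhancers that are accessible, and H3K27me3 is the mark of Polycomb repression. In Hedgehog signalling the GLI factors, Gli1, Gli2 and Gli3, carry the signal to DNA, and without ligand Gli3 is processed to a repressor. The interval begins beyond the 3′ end of Gli3, which lies at chr13:15463235-15730026 outside it. The first gene inside is Inhba, which encodes the subunit of activin A, a secreted TGF-beta family ligand. It is followed by a stretch without protein-coding genes and then by Sugct, which encodes a mitochondrial CoA transferase of glutarate metabolism. Farther on lie, among others, Mplkip, Cdk13, Rala, Yae1d1, Vps41, Amph, the T cell receptor gamma segments, Stard3nl, Epdr1, Sfrp4, Nme8 and Gpr141.

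The sequences printed next, from the mm10 reference plus strand, are the central 300 bases of the 4 best-ranked peaks called only with purmorphamine and of the best-ranked peak called only in the control. They are shown because they are the strongest elements that carry the difference in either direction. Capitals mark exact matches to the AP-1 letters TGANTCA on either strand, and none of the 5 windows holds the GLI consensus GACCACCCA.
Purmorphamine-only rank 860, between Inhba and Sugct, chr13:16677625-16677924: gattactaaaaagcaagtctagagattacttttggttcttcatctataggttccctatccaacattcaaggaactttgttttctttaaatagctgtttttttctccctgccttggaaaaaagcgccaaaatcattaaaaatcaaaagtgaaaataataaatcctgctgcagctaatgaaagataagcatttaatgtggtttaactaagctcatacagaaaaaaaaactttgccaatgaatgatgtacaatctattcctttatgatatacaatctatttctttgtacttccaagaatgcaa
Purmorphamine-only rank 2850, Sugct intron 9, chr13:17432450-17432749: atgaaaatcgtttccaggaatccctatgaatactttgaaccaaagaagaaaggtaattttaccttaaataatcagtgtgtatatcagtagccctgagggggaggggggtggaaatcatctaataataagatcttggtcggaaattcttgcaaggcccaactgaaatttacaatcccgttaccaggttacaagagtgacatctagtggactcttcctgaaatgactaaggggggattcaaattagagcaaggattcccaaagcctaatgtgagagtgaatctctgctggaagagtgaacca
Purmorphamine-only rank 6004, Sugct intron 13, chr13:16966700-16966999: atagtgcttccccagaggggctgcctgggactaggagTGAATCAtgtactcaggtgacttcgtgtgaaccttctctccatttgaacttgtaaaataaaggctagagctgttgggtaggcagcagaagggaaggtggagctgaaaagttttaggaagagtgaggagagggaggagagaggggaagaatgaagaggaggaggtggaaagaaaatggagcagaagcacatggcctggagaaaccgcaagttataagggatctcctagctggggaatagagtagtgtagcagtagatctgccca
Purmorphamine-only rank 6766, Sugct intron 13, chr13:16897725-16898024: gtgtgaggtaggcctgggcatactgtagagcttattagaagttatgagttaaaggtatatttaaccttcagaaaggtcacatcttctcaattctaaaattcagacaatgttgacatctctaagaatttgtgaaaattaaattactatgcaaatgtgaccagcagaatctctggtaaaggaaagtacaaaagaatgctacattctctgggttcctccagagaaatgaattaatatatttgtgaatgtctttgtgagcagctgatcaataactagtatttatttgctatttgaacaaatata
Control-only rank 30804, Epdr1 intron, chr13:19612950-19613249: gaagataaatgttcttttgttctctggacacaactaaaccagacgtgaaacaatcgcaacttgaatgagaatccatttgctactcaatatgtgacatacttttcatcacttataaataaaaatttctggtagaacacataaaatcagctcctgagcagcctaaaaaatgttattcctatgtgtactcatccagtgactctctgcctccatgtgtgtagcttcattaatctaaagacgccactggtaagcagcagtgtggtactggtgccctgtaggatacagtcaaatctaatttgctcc

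The GLI consensus occurred in the 300-base centre of 1 of the 308 purmorphamine-only peaks of the interval, or 0.325% (95% Wilson interval 0.0573 to 1.82), beside 0.365% of all 32020 purmorphamine-only peaks. The match lies at chr13:16140540-16140548 between Inhba and Sugct, just before a 150-bp peak that itself ranks 63122. It is printed with its surroundings and the 9 matching bases in capitals.
GLI match, chr13:16140510-16140578: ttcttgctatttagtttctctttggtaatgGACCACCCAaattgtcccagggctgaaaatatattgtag
The AP-1 letters occurred in 35 of the same 308 windows, 11.4% (8.29 to 15.4), beside 9.77% of all purmorphamine-only peaks. The letters were also searched in the RefSeq promoter of Inhba (GRCm38.p6, the assembly that mm10 names), the protein-coding promoter with the widest NIH3T3 acetylation of the interval, and it held neither motif.
Inhba promoter, chr13:16011601-16011900, plus strand: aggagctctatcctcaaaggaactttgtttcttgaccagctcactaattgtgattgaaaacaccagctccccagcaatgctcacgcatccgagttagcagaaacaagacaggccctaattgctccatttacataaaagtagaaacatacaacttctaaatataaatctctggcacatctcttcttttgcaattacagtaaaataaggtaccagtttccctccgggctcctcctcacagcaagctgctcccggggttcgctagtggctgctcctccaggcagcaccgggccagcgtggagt
Over 32851 RefSeq promoters of this length, 0.253% held the GLI consensus and 7.81% the AP-1 letters. A promoter entry was found for 11 of the 14 protein-coding genes of the interval, and none of the 11 held either. The letters searched are exact, so weaker GLI sites were not counted. The purmorphamine-only windows had a median of 41.7% G and C, against 46.7% over all purmorphamine-only peaks, in an interval whose sequence is 39.6% G and C, less than the 41.6% of the whole chromosome.

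A peak was called unshared if it overlapped no peak of the other condition's list by 1 bp or more. Of the 356 purmorphamine peaks of the interval 308 were purmorphamine-only, 86.5% (82.6 to 89.7), while the share over the whole purmorphamine list was 36.5%. Of the 99 control peaks 29 were control-only, 29.3% (21.2 to 38.9), against 41.1% of the whole control list. All such intervals cover counting error only. These 4 shares restate the rule that chose the interval. The excess of purmorphamine-only over control-only peaks was 279 here, whereas over the whole genome it was -5385 (32020 against 37405).

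Sequence covered showed the same contrast, but it sums the widths of these calls and so follows in part from the selection. Purmorphamine peaks covered 213250 bp, 5.08% of the interval, beside 2.08% of the genome. Control peaks covered 51550 bp, 1.23%, beside 2.21% of the genome. Over the interval as a whole, acetylation called in the control was thus sparser than over the genome, and acetylation called with purmorphamine was denser. The low control coverage did not hold where most purmorphamine-only peaks lay. Control peaks covered 1.97% from 15800001 to 17600000 and 2.68% from 16600001 to 17400000. Over the rest of chromosome 13, 2360 of 4851 purmorphamine peaks (48.6%) and 1837 of 4343 control peaks (42.3%) were unshared. In the window of equal length just before the interval the purmorphamine list held 81 peaks (25 unshared) and the control list 107 (65 unshared), and in the window just after it the lists held 137 (44 unshared) and 138 (47 unshared). Neither neighbouring window showed an excess of purmorphamine-only peaks.

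The ends of the interval are round positions and cut the pattern differently on either side. At the left end the last 200-kb bin outside held 5 purmorphamine-only and 7 control-only peaks and the first bin inside held 8 and 0. The last purmorphamine peak before the start is at chr13:15762350-15762849 (rank 74646) and the first inside at chr13:15803650-15803899 (rank 66741). At the right end neither the last bin inside nor the first bin outside held any NIH3T3 peak. The last purmorphamine peak inside is at chr13:19764100-19764199 and the next on the chromosome begins at 21161050.

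**Figure D1:**
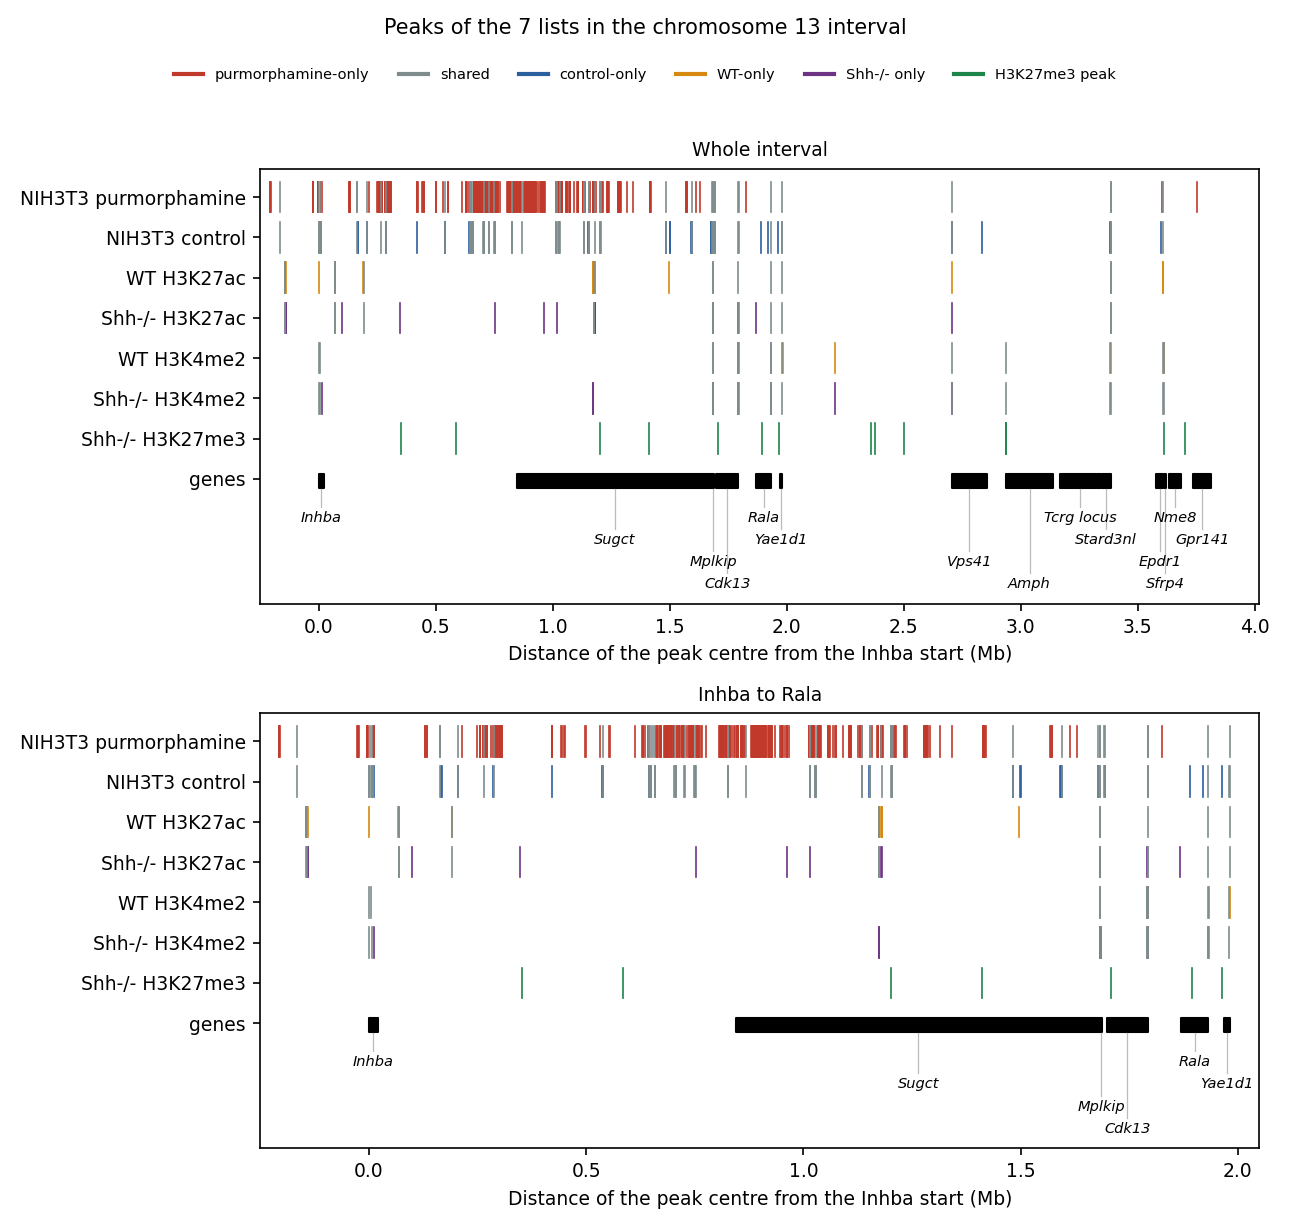
Peaks of the 7 lists by distance of their centre from the start of Inhba in Mb, for the whole interval (upper panel) and for Inhba to Rala (lower panel), with the bodies of genes named in the text as black bars. Colours give the class of each peak. The purmorphamine-only peaks crowd into the stretch between Inhba and the 3′ part of Sugct, where the limb lists have few peaks.

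The excess was carried by the first 1800 kb of the interval. Counted in 200-kb bins, purmorphamine-only peaks outnumbered control-only peaks in each of the first 9 bins, from 15800001 to 17600000, which together held 303 of the 308 purmorphamine-only peaks (98.4%) and 14 of the 29 control-only peaks. The remaining bins held 5 purmorphamine-only and 15 control-only peaks. Within the run, the counts of purmorphamine-only peaks by bin were 8, 12, 31, 12, 67, 89, 51, 21 and 12, and those of control-only peaks were 0, 3, 2, 3, 1, 0, 1, 0 and 4. The profile thus had a small early rise in the third bin, past Inhba, and a main peak in bins 5 to 7. The middle 90% of purmorphamine-only peaks lay between 16.02 and 17.43 Mb, with a median position of 16.85 Mb, close to the 3′ end of Sugct. The bin from 17600001 to 17800000 turned the other way, with 2 purmorphamine-only and 8 control-only peaks.

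The densest stretch was 16600001 to 17400000. It held 252 purmorphamine peaks, 228 of them purmorphamine-only, and 44 control peaks, 2 of them control-only. Purmorphamine peaks covered 19.6% of this stretch and control peaks 2.68%. Neighbouring purmorphamine peaks were separated by a median of 400 bp, against 700 bp over the whole list. Across the genome's 13603 bins of 200 kb, the bin from 16800001 to 17000000 was the 5th by excess (89), and the highest excess elsewhere was 108. The interval held 5 of the 204 bins with an excess over 20, so bins of this kind were also found in other places.

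**Figure D2:**
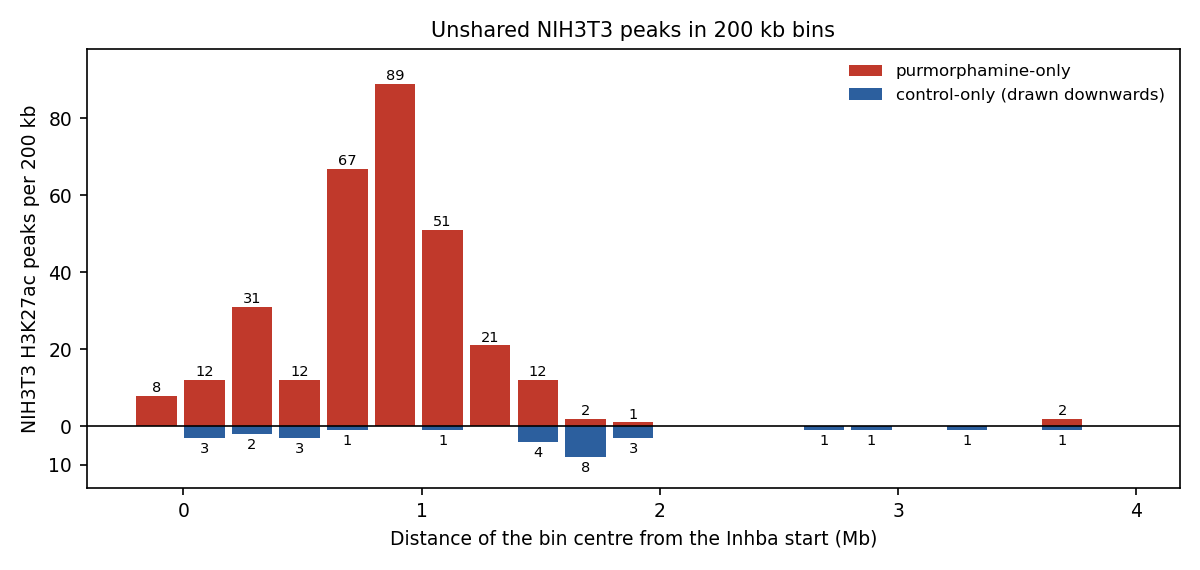
Purmorphamine-only (upward) and control-only (downward) NIH3T3 H3K27ac peaks per 200-kb bin, by distance of the bin centre from the start of Inhba in Mb. The bin from 16800001 to 17000000 has 89 and 0, and the bins beyond 17600000 have no more than 2 purmorphamine-only peaks each.

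Divided at the genes, and with each peak placed by its centre, the excess fell almost wholly into a pair of neighbouring segments. The 826 kb between Inhba and Sugct held 140 purmorphamine-only peaks (45.5% of those of the interval) and 8 control-only peaks, and purmorphamine peaks covered 11.3% of it, control peaks 2.01%. The body of Sugct, 838 kb, held 149 (48.4%) and 12, with 11.1% and 1.47% covered. The 212 kb from the start of the interval to Inhba held 13 and 0. Beyond Sugct the picture was different. The segments from Sugct to Yae1d1, Yae1d1 to Vps41, Vps41 to Stard3nl and Stard3nl to the end of the interval held 1, 0, 0 and 2 purmorphamine-only peaks and 4, 1, 2 and 1 control-only peaks.

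Inside Sugct the excess lay in its 3′ introns, by calls and by coverage. The gene is on the minus strand, so its last intron, 13, is the one nearest Inhba. Intron 13 (118 kb) held 62 purmorphamine peaks, 61 of them unshared, and 1 control peak, and 33.1% of its bases were covered with purmorphamine against 0.0846% in the control. Intron 12 (276 kb) held 75 (61 unshared) against 17 (1 unshared), with 14.0% against 2.90% covered. Introns 11, 10 and 9 held 9, 1 and 10 purmorphamine peaks, all unshared, and no control peak. Toward the promoter this reversed or levelled out, with 1 purmorphamine (0 unshared) and 5 control (4 unshared) peaks in intron 8, 7 (6) and 5 (4) in intron 6, and 2 (0) and 5 (3) in intron 1. The Sugct promoter, at 17695553, therefore lay outside the 9-bin run.

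The purmorphamine-only peaks of the interval were wider and better placed in their list than such peaks usually are. Their median width was 250 bp, against 200 bp over all purmorphamine-only peaks, and 26 of them (8.44%) were wider than 1 kb, against 2.55%. Their median largest log2 ratio of ChIP to input was 2.62, against 2.51, and their median rank was at 60.2% of the list, against 70.7%. In the better-ranked 50% of the list were 111 (36.0%, against 22.0%), and in the best 10% were 7 (2.27%, against 0.378%). The 29 control-only peaks of the interval were weak, with a median width of 150 bp, a median rank at 82.4% of the control list and no peak wider than 800 bp. Most members of the excess were small calls all the same, with an upper quartile of the log2 ratio at 2.92.

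**Figure D3:**
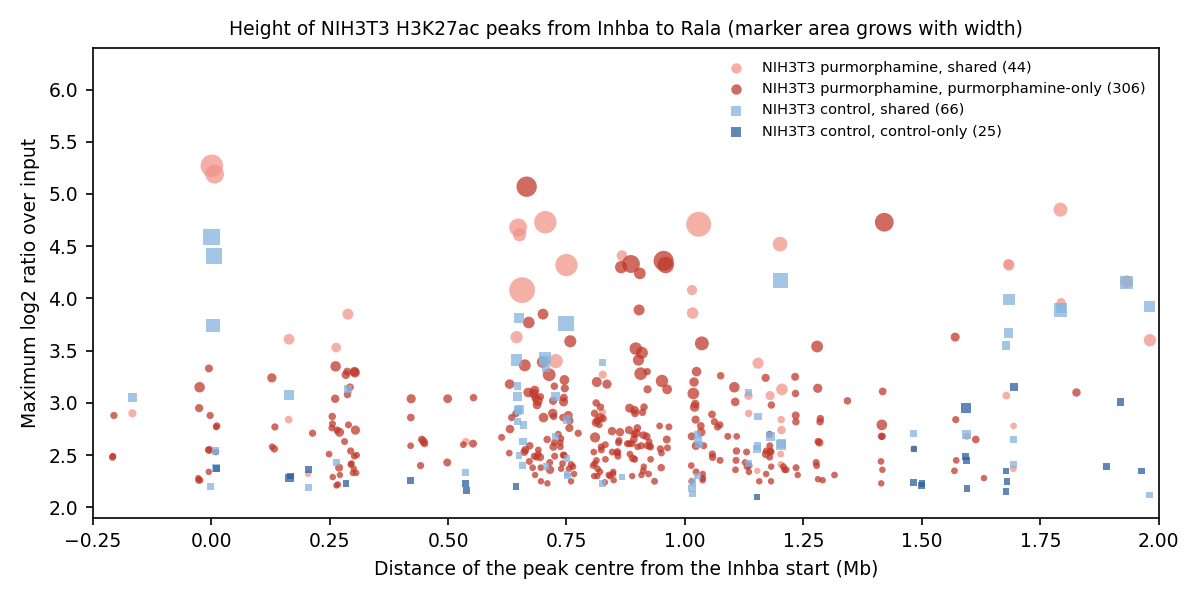
Largest log2 ratio of ChIP to input of each NIH3T3 H3K27ac peak against the distance of its centre from the start of Inhba in Mb, with marker area growing with peak width. The highest points are the shared peaks at Inhba (5.27 and 5.19 with purmorphamine) and the purmorphamine-only peak of rank 860 (5.07), and most purmorphamine-only peaks are below 3.

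Purmorphamine-only peaks here were also far from any control peak. The median number of bases to the nearest control peak was 12875, against 1400 over all purmorphamine-only peaks. Only 24 (7.79%) were within 1 kb of a control peak, against 44.5%, and 171 (55.5%) were 10 kb or more away, against 20.8%. Control-only peaks, by contrast, had a purmorphamine peak at a median of 700 bases, against 1000 over all control-only peaks. Of these 29 peaks 20 (69.0%) had one within 1 kb, against 49.4%. Most purmorphamine-only calls thus lay 1 kb or more from any control peak. The interval was chosen for many purmorphamine-only and few control-only calls, so distances of this kind follow in part from that choice.

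The best-ranked purmorphamine-only peak, at chr13:16675150-16680399, was 5250 bp wide with a log2 ratio of 5.07 and rank 860. It lay between Inhba and Sugct, 3700 bases from the nearest control peak, and its sequence is the first one printed above. The next, rank 2850, at chr13:17430400-17434799 in Sugct intron 9, was 4400 bp wide (log2 ratio 4.73) and stood 58850 bases from any control peak. The other 4 of the 6 best lay in Sugct intron 13. They were the peaks of rank 6004 (chr13:16964300-16969399, 5100 bp, 4.36), 6766 (chr13:16895900-16899849, 3950 bp, 4.33), 6784 (chr13:16876550-16878199, 1650 bp, 4.30) and 6860 (chr13:16969600-16972899, 3300 bp, 4.32). The first and last of these 4 are neighbours in a single cluster. The best-ranked control-only peaks were lower, at 30804 (Epdr1 intron, chr13:19612900-19613299), 30991 (Rala intron, chr13:17931100-17931399), 33443 (between Mplkip and Cdk13, chr13:17705800-17706199) and 34641 (Sugct intron 6, chr13:17604200-17604999). None of these 4 lay in the stretch from Inhba to the 3′ part of Sugct.

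Joining purmorphamine peaks less than 1 kb apart gave 132 clusters, of which 67 held more than 1 peak, 11 were 5 kb or wider and 6 were 10 kb or wider. Over the whole list 2555 of 39491 clusters were 5 kb or wider, 662 were 10 kb or wider and the widest was 94100 bp. The median cluster width was 950 bp here, against 1200 bp over the whole list. The widest of the interval spanned 29350 bp (chr13:16655200-16684549) between Inhba and Sugct, with 13 purmorphamine peaks, 9 of them unshared, and 13 control peaks. At its left end the control list also had peaks, up to a log2 ratio of 3.81, while the part from 16672700 onward, which includes the peak of rank 860, had none in the control. The next cluster, 24650 bp in Sugct intron 12 (chr13:17025200-17049849), held 20 purmorphamine peaks, 17 unshared, and 7 control peaks that were 100 to 350 bp wide with log2 ratios of no more than 2.70. A cluster of 13400 bp in intron 13 (chr13:16961650-16975049) held 8 purmorphamine peaks and no control peak. Clusters without any control peak were also found at chr13:16913150-16922299 (9150 bp, 8 peaks), chr13:16893550-16901849 (8300 bp, 8 peaks) and chr13:16819400-16827599 (8200 bp, 12 peaks). Broad acetylated blocks in the run thus included some that were wider than blocks of the control and some with no control call. The widest single member of the purmorphamine list, 8700 bp at chr13:16663850-16672549, is in the widest cluster, where the control had 3 peaks of 800 bp in all. The widest control member, 3150 bp, is at Inhba.

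For the 48 purmorphamine peaks that overlapped a control peak, the deposited heights can be set side by side, although each list was called against its own input. The log2 ratio was higher with purmorphamine at 34 (70.8%), against 43.2% of all 55759 shared peaks, and the median difference, purmorphamine minus control, was 0.33, against -0.11. By rank percentile, 29 (60.4%, against 37.9%) were better placed with purmorphamine. The difference came from the first 1800 kb, where 26 of 34 (76.5%) were higher and the median difference was 0.50, while the other 14 had a median difference of 0.01 with 8 higher. So where both lists had a peak in the run, the purmorphamine peak was usually the taller one. These pairs come from the contrast that chose the interval, and several purmorphamine peaks can face the same wide control peak, so no test was made.

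The 3 largest differences were in Sugct. At chr13:16878500-16879599 the ratio was 4.41 with purmorphamine and 2.29 in the control, a difference of 2.12. At chr13:17036850-17044949 a purmorphamine peak of 8100 bp (4.71) faced 4 control peaks of 1000 bp in all (2.65). At chr13:17026350-17027299 the ratios were 4.08 and 2.18. The lowest difference, -1.66, was at a 200-bp purmorphamine peak at chr13:17213950-17214149 that touched a control peak of 2600 bp whose height belongs mainly to the neighbouring purmorphamine peak (4.52 against 4.17). That site, chr13:17211400-17217299 in Sugct intron 12, was the 1 cluster of 5 kb or wider without a purmorphamine-only peak.

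**Figure D4:**
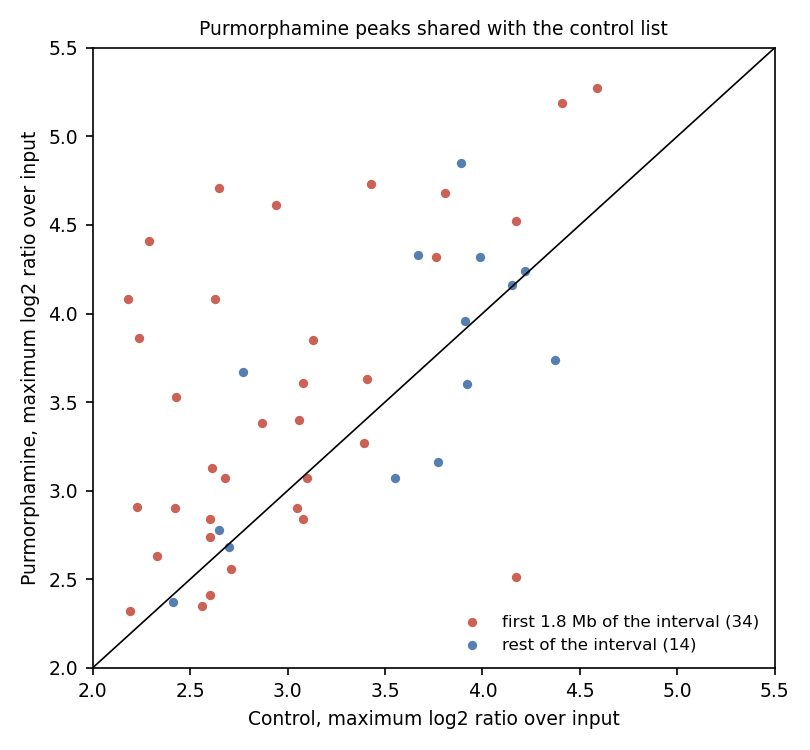
Largest log2 ratio to input with purmorphamine (vertical axis) against that in the control (horizontal axis) for the 48 purmorphamine peaks that overlap a control peak, with the line of equality. Of the 34 in the first 1.8 Mb (red) 26 are above the line, and of the other 14 (blue) 8 are.

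Among the 14 protein-coding genes, each taken with 20 kb on either side, 3 had an excess of purmorphamine-only peaks, 6 an excess of control-only peaks and 5 neither. The excess was 143 at Sugct (156 purmorphamine-only and 13 control-only), 7 at Inhba (8 and 1) and 1 at Gpr141, an orphan receptor gene with a single 100-bp peak. At Inhba the excess was 2 in the gene body alone, 2 with peaks within 1 kb merged, 3 in the better-ranked 50% of each list and 12 with 50 kb on either side, so most of the 7 lay in the margin. At Sugct it was 137 in the gene body alone, 54 in the better-ranked 50% and 50 after merging. On the other side stood Mplkip, whose product binds a mitotic kinase (0 and 4), Cdk13, a kinase that acts on RNA polymerase II (0 and 2), Rala, a Ras-like GTPase (0 and 2), Vps41, a subunit of a lysosomal tethering complex (0 and 2), Yae1d1 (0 and 1) and Stard3nl, a late endosome protein (0 and 1). Epdr1 had 1 and 1, and Sfrp4, a secreted Wnt antagonist, had no NIH3T3 peak in its body but shares these through its 20-kb margin. Amph, a neuronal endocytosis gene, Nme8, a gene of motile cilia, and the T cell receptor gamma segments had no NIH3T3 peak in either list. Among the 6 loci with more control-only peaks, the difference was 0 in the gene body alone at Mplkip, Cdk13 and Yae1d1. With peaks merged it was 0 at Mplkip, Cdk13 and Stard3nl. In both settings it was -2 at Rala and -1 at Vps41. Margins overlap, so the control-only peak at chr13:17705800-17706199 counts at Sugct, Mplkip and Cdk13. Of the 9 control peaks at Mplkip 4 were control-only, beside 41.1% of the whole list. The counts were 2 of 9 at Cdk13, 2 of 3 at Rala, 2 of 3 at Vps41, 1 of 3 at Yae1d1 and 1 of 3 at Stard3nl. Control-only peaks also outnumbered purmorphamine-only peaks over the whole genome, so these small differences are not read as particular to the loci. Gli3, outside the interval, had 9 purmorphamine-only and 10 control-only peaks, a difference of -1 whose sign turned under several settings (1 with gaps of up to 500 bp counted as shared or with lists of equal size, 2 with neighbouring peaks merged or in the gene body alone).

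Inhba is the protein-coding gene at which the run meets a strongly acetylated promoter. Its promoter, defined as 2 kb before to 1 kb after a start, had 6800 bp of overlapping purmorphamine peaks and 5300 bp of control peaks. The main peak, chr13:16010100-16016649, ranked 430 of 87779 with purmorphamine (log2 ratio 5.27), and the best control peak ranked 7180 of 90989 (4.59). A second peak in the gene, chr13:16016950-16021349, ranked 673 (5.19), and its best control partner ranked 4699 (4.41). Peaks centred in the 19.8-kb gene body summed to 11500 bp with purmorphamine and 9000 bp in the control, bases before the gene start included. Acetylation there was thus broad in both conditions. No difference in its level can be tested from lists that pool the replicates.

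No protein-coding promoter of the interval had a peak in 1 NIH3T3 condition alone. Of the 14 genes 9 had a promoter peak in both lists and 5 in neither. Of the 308 purmorphamine-only peaks 12 (3.90%) lay at any annotated promoter, against 3348 of 32020 over the whole list, and 150 (48.7%) lay between genes, against 44.2%. Sugct and Mplkip share a promoter region in which the best peaks ranked 7012 (4.32) with purmorphamine and 10382 (3.99) in the control. The Cdk13 promoter had 2900 bp of peaks in both, with the best at rank 2187 (4.85) and 12510 (3.91). The Vps41 promoter ranked 18403 (3.67) with purmorphamine and 38733 (2.77) in the control. At Rala the ratios were 4.16 and 4.15, at Epdr1 4.24 and 4.22, at Yae1d1 3.60 and 3.92 and at Stard3nl 3.74 and 4.37. Promoters outside the run thus stood higher in either condition or alike in both, with no common direction.

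The promoters called in 1 condition alone all belonged to annotated noncoding transcripts whose function is not known here. With purmorphamine only, these were 4933412O06Rik (peaks of rank 66741 and 65559) and A530046M15Rik (38474) near the start of the interval, Gm48491 (45288 and 87064) between Inhba and Sugct, and Gm26098 (best of 4 at 59675) and Gm48503 (53028 and 55061) inside Sugct. In the control only, Gm48754, within Rala, had the peak of rank 30991. All 11 purmorphamine-only peaks at these 5 promoters were 250 bp wide or less.

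**Figure D5:**
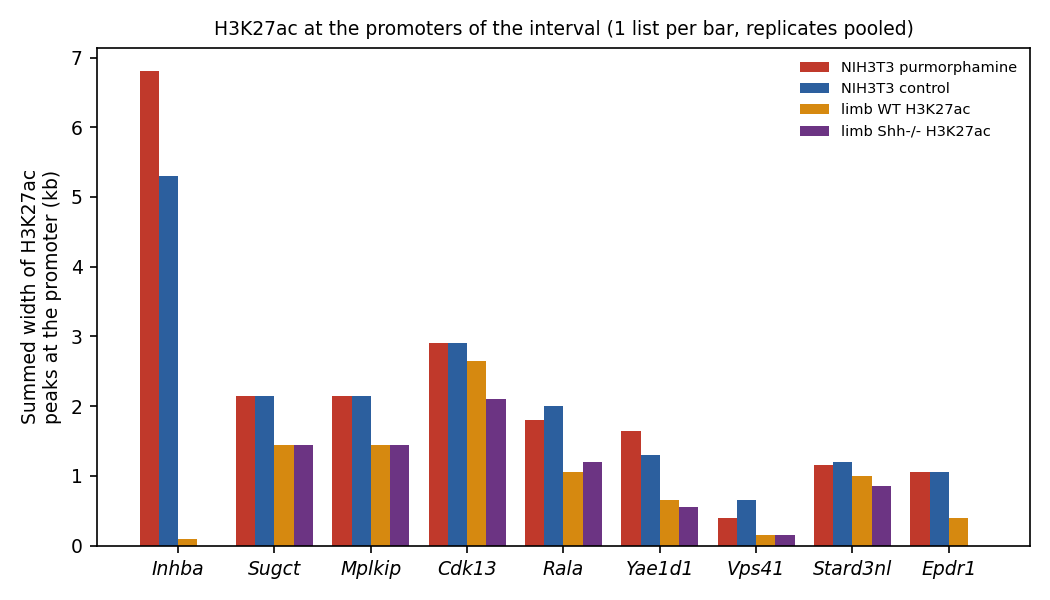
Summed width in kb of the H3K27ac peaks that overlap each promoter, for the 9 protein-coding genes of the interval with NIH3T3 promoter peaks, in the 4 H3K27ac lists. Each bar is 1 list that pools 2 replicates, so there is no error bar; Inhba has 6800 and 5300 bp in NIH3T3 cells and 0.1 kb or less in the limb, and Cdk13 has 2900 bp in both NIH3T3 lists.

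The limb lists did not enter the rule. In limb buds the interval was poor in H3K27ac, with 6.67 WT and 6.90 Shh-/- peaks per Mb, against 18.2 and 16.1 over the genome. Of the 28 WT peaks 14 were WT-only, 50.0% (32.6 to 67.4), against 48.5% of the whole list, and of the 29 Shh-/- peaks 14 were Shh-/- only, 48.3% (31.4 to 65.6), against 38.4%. For H3K4me2 5 of 22 WT peaks were WT-only, 22.7% (10.1 to 43.4), against 25.7%, and 8 of 26 Shh-/- peaks were Shh-/- only, 30.8% (16.5 to 50.0), against 22.5%. All 4 intervals include the share of the whole list, so no difference between the genotypes particular to the interval was detectable with so few peaks. Fewer acetylated cells and less acetylation per cell cannot be told apart in whole buds.

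Few of the purmorphamine-only peaks had a counterpart in the limb. They overlapped WT H3K27ac at 3 of 308 (0.974%, against 5.26% of all purmorphamine-only peaks), Shh-/- H3K27ac at 2 (0.649%, against 4.22%), Shh-/- H3K4me2 at 1 (0.325%, against 4.03%) and WT H3K4me2 at 0 (against 4.22%). H3K27me3 overlapped 0 of 308 (0 to 1.23%), an interval that includes the 0.959% of all purmorphamine-only peaks. The 3 that overlapped WT H3K27ac were neighbours in Sugct intron 12, at chr13:17190250-17190449, chr13:17192450-17192649 and chr13:17192700-17192999. The WT limb peaks there were WT-only, 100 to 150 bp wide and of rank 40292 or worse, and the Shh-/- list had peaks close by, at 17190050 and 17193650, that did not overlap them. The 2 that overlapped Shh-/- H3K27ac were at chr13:16765250-16765899 and chr13:16974850-16975049, and the limb peaks there were Shh-/- only. NIH3T3 peaks shared by both conditions had a limb counterpart more often, with WT H3K27ac at 11 of 48 (22.9%, against 26.9% of all shared purmorphamine peaks).

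The strongest limb acetylation of the run was at a few elements of its own. The strongest was at 15866100 to 15868599, before Inhba, where the best WT peak ranked 3003 (log2 ratio 5.09) and the best Shh-/- peak 7271 (4.01, 1650 bp, the widest of that list in the interval). A second was in Sugct intron 12 at chr13:17185750-17186599, ranked 3160 in WT (5.05), with Shh-/- peaks of rank 13117 (3.46) and 18602 (3.15) in the same place. A further pair, at 16079850 and 16202900 between Inhba and Sugct, ranked 14041 and 11882 in WT and 42826 and 11604 in Shh-/-. No NIH3T3 peak overlapped any of these elements. These limb elements and the fibroblast peaks thus occupied different sites of the same stretch. Over the whole interval, limb peaks met fibroblast peaks at shares whose intervals include those of the whole lists. Of the 28 WT H3K27ac peaks 14 overlapped a purmorphamine peak (50.0%, 32.6 to 67.4, against 38.3% of the whole list). Of the 29 Shh-/- peaks 14 did (48.3%, 31.4 to 65.6, against 40.2%). Control peaks were met by 11 WT peaks (39.3%, against 38.2%) and by 11 Shh-/- peaks (37.9%, against 40.3%).

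Unshared limb peaks were weak, as such peaks were over the whole lists. For H3K27ac their median rank was at 68.0% of the WT list, against 68.0% for all WT-only peaks. In Shh-/- it was at 69.4%, against 69.6%. For H3K4me2 the 5 WT-only peaks were at 93.8%, against 80.2%, and the 8 Shh-/- only peaks at 72.5%, against 78.6%. The best WT-only H3K27ac peaks ranked 13671 (chr13:16202250-16202499), 19711 (chr13:15868850-15869049) and 22952 (chr13:17184650-17185099), each beside a shared element just named. The best Shh-/- only peaks ranked 18420 (chr13:17027800-17027949, in Sugct intron 12), 23831 (chr13:17694200-17694399) and 25932 (chr13:15869450-15869649). The first of these lay on a purmorphamine peak that the control list shared, at 17027350 to 17028699. For H3K4me2 the best Shh-/- only peak ranked 18681 (chr13:17185400-17185749) at the limb element of Sugct intron 12, and another, of rank 25400, was at Cdk13. WT-only H3K4me2 peaks ranked 33903 beside Yae1d1 and 34312 beside Stard3nl, with FDRs of 0.0746 and 0.0815 in a list whose FDR reached 0.113.

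At promoters the limb lists were led by different genes. For H3K4me2 the best rank of the interval was at Amph in WT (3226) and at Cdk13 in Shh-/- (2777). Rala had the best-ranked H3K27ac peak of the interval in both genotypes, 156 in WT (6.73) and 201 in Shh-/- (6.30). The widest WT H3K27ac peak (2650 bp, rank 2449) and the widest H3K4me2 peaks, 1150 bp in WT and 1400 bp in Shh-/-, were at Cdk13. Inhba, broad in NIH3T3 cells, had in the limb 1 WT-only H3K27ac peak of 100 bp and rank 34441 (2.81) and none in Shh-/-, although H3K4me2 was called at its promoter in both genotypes, with ratios of 4.03 and 4.22. Epdr1 had WT-only H3K27ac peaks (best rank 31043) over H3K4me2 shared by the genotypes. H3K4me2 was called at 11 of the 14 promoters in each genotype, beside 64.0% of all protein-coding genes in WT and 63.5% in Shh-/-. H3K27ac was called at 9 in WT and 7 in Shh-/- (beside 43.8% and 40.9% of all genes), the 2 that differ being Inhba and Epdr1.

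H3K27me3, measured in Shh-/- buds alone, had 14 peaks in the interval. Among the best were those of rank 3345 at the Amph promoter (chr13:18948650-18949049, log2 ratio 3.04) and 4995 in Sugct (chr13:17423850-17424099, 2.72). The Amph promoter, with the widest peak (400 bp), also had limb H3K4me2 and no H3K27ac in any list. The Sfrp4 promoter shared that pattern, but its single H3K27me3 call was 100 bp wide and ranked 18418 of 20830 (2.18), in a list whose FDR reached 0.255. With no WT H3K27me3 library, no genotype comparison could be made.

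Lists of marker promoters were counted beside all 21911 protein-coding genes, of which 53.1% had a promoter peak in the purmorphamine list and 53.0% in the control list. Of these genes 328 had one with purmorphamine and not in the control, and 305 the reverse. Of 8 Hedgehog pathway promoters 7 had NIH3T3 H3K27ac with purmorphamine and 5 in the control. The direct target Gli1 had a peak with purmorphamine only (rank 96). The target Ptch1 had 7300 bp of peaks with purmorphamine and 3200 bp in the control. Of 11 activin and TGF-beta pathway promoters 9 had a peak in each list. Of 5 Sfrp family promoters 2 had a peak with purmorphamine and 0 in the control, both of them weak (Sfrp5, 400 bp and rank 34568, and Frzb, 150 bp and rank 61136). All 7 fibroblast promoters were acetylated in both NIH3T3 lists and all 6 limb mesenchyme promoters in both limb H3K27ac lists (43.8% of all genes in WT and 40.9% in Shh-/-), while 3 of those 6 were in each NIH3T3 list. Of the 3 T cell promoters 0 had a peak in any list, and of 3 neuron promoters 1 (Snap25) had an NIH3T3 peak, with purmorphamine only (100 bp, rank 84416). The highest FDR of a deposited peak was 0.000805 in the purmorphamine list and 0.00268 in the control list, so the lists were not cut at the same FDR, and the part of this in the excess was not tested beyond lists of equal size.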

How the data were processed

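The data were peak lists of 7 ChIP-seq groups. Per the submitters' processing notes reads were aligned with Bowtie2 2.2.5 to mm10, and the authors called peaks with CisGenome in 50-bp steps against input with both replicates together. The lists hold no read totals, so the depth behind a peak is unknown here. Beside rank, position and width, the deposited values of a peak are an FDR (a q-value), a score on which the rank rests, the highest log2 ratio over input and a −log10 Poisson p-value. Ranks and log2 ratios were used within a list and, for overlapping NIH3T3 or limb peaks and promoters, set side by side between lists of the same mark without a test, and coordinates as deposited, read as 1-based since the base of the count is not stated in the sources used here (a start could be off by 1 base). Left out were 137 peaks on other sequences, and 0 columns of values per sample.

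Overlaps, bins, promoters and motifs were computed with Python 3.11.15, pandas 2.3.3 and pysam 0.24.0 on the GRCm38 sequence and annotation. The overlap function was tested on simulated data, and bedtools 2.31.1 also found 55759 shared purmorphamine peaks. The interval, gene lists and measures were chosen with earlier results of these data known. The rule for names took in the protein-coding genes of the interval, the genes with a promoter peak in 1 NIH3T3 condition only, the best-ranked unshared peaks (6 purmorphamine-only, 4 control-only, 3 for each limb list), the 3 best H3K27me3 peaks and the widest peaks; some of these are not reported here. Other peaks, clusters and segments were singled out after their values were seen. Overlap, rank, merging, bin size, gene margin and motif window were varied.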

Additional observations from a re-analysis of the deposited data

How the results depend on the processing

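No paired analysis was possible because each list pools both replicates; for the same reason no replicate could be left out. Of 54 alternatives for the main results 34 were close to the main value and 20 were not. Close meant within 1.5 times the main value, with 1 exception. The difference of the shared peaks, 4.48 by rank percentile and 0.33 by log2 ratio, was judged on its sign alone. With the better-ranked 50% of each list, purmorphamine-only peaks fell from 308 to 120, control-only from 29 to 7, the excess from 279 to 113 and that of the 9 bins from 289 to 118. With peaks within 1 kb merged these were 102, 9, 93 and 93. With gaps of up to 500 bp counted as shared, control-only peaks were 17. Fewer and joined calls lower such counts by construction. WT-only H3K27ac (14) became 6 with gaps, 5 in the better-ranked 50% and 7 when merged, Shh-/- only H3K27ac (14) 8 with gaps and 2 in the better-ranked 50%, WT-only H3K4me2 (5) 2, 3 and 1, and Shh-/- only H3K4me2 (8) 3, 3 and 3. The run kept its start and a length of 1800 to 2000 kb in every setting, bins of 100 and 500 kb included. Lists of equal size gave an excess of 291 in the run. Signs turned in 6 cases among the single loci and bins: at Gli3 from -1 to 1 (gaps), 1 (equal lists), 2 (merged) and 2 (gene body alone), in the tenth bin from -6 to 2 (merged) and in the twentieth from 1 to -1 (better-ranked 50%). The cause was not tested. Without replicate lists and depth, no difference in level at a single peak can be given an error.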
